A study of Mus musculus with 3 samples.

Results

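The genes Zp2, Atp2b1 and Snap23 encode a zona pellucida protein, a calcium pump of the plasma membrane and a membrane fusion protein of mouse eggs. Every row of the analysed table with 1 of these symbols was taken, which gave 5 transcript variants of 3 genes among 9126 transcripts of 6104 gene symbols. Poly(A)-primed full-length cDNA had been sequenced from ICR oocytes matured in culture for 16 to 18 h in M16 medium to metaphase II, where eggs pause until a sperm enters. The 3 libraries came from young oocytes, from aged ones, and from aged ones matured in medium mixed 1 to 1 with secretome, what mesenchymal stem cells from human umbilical cord release into their culture (aged-sec). The labels give no age in weeks or months for either kind of mouse, and their treatment field carries the secretome for every sample, so the groups follow the sample titles. Each library pooled 20 oocytes of 4 mice and each group had 1 library, so no value has a replicate error, no test was possible, and every difference is between libraries. The values are TPM, transcript abundances that are corrected for length and sum to 1000000 over a whole library. The listed transcripts made up 22.9% of the TPM of the young, 32.5% of the aged and 32.1% of the aged-sec library, and the sequencing depth is unknown. No listed transcript had an aged over young ratio under 1.2, so that aged exceeds young for all 5 variants was set by how the table was made. TPM are shares of a library, so less RNA of a gene per oocyte cannot be told apart from more of the other RNAs.

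The egg is wrapped in the zona pellucida, an extracellular coat that it secretes itself and to which sperm bind. At fertilization, waves of calcium are released inside the egg, and pumps such as the one made from Atp2b1 push calcium back out across the plasma membrane. The same calcium signal makes cortical granules, vesicles under the egg membrane, fuse with it through SNARE proteins, of which SNAP23 is one. The released protease ovastacin then cuts ZP2, and sperm no longer bind to the zona.

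The exons that hold the working site of each protein are shown because they link the 3 genes to these steps. They were read from the GENCODE M21 annotation of assembly GRCm38 for 1 curated transcript of each gene (Zp2 NM_011775, Atp2b1 NM_026482, Snap23 NM_009222). Of these only NM_009222 is among the variants measured here. Each exon is wholly coding and is printed 5′ to 3′ on the strand of the gene. Capitals mark the codons of the ovastacin cleavage site of ZP2 (codons 166 to 169), of the phosphorylation motif that P-type ATPases use in their pumping cycle (codons 475 to 479), and the 5 cysteine codons of the stretch by which SNAP23 is anchored to membranes through attached fatty acids (codons 79 to 87).
Zp2, exon 6 of 18, chr7:120141227-120141271, minus strand: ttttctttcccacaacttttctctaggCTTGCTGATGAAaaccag
Atp2b1, exon 10 of 21, chr10:98999739-98999981, plus strand: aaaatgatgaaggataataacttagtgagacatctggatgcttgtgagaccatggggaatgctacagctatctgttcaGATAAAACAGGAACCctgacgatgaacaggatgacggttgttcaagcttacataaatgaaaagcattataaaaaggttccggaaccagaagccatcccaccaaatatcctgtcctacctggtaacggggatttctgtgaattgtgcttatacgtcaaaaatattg
Snap23, exon 5 of 8, chr2:120586159-120586276, plus strand: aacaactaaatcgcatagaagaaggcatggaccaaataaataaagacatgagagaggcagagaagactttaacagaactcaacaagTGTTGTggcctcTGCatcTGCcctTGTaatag

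Zp2 was represented by 1 predicted variant, XM_006507589. Its level was 20.52 TPM in the young, 39.31 TPM in the aged and 20.51 TPM in the aged-sec library. The aged library was thus the high one, and the young and aged-sec libraries differed by 0.01 TPM, the smallest step of the table. Aged over young was 1.92, a log2 ratio of 0.92 with 0.5 TPM added to both values, as in all log2 ratios here. Aged-sec over aged was 0.522, a log2 ratio of −0.92. Neither ratio met the size rule used throughout, which asks for a ratio of 2-fold or more after 0.5 TPM was added and for 10 TPM or more in one of the libraries compared. Among the transcripts that reached 10 TPM in a library of the pair, 78.4% of 2186 had a lower age ratio than this variant, and 3.80% of 2239 had a lower aged-sec over aged ratio. The RefSeq table of assembly GRCm38.p6 lists 3 other mRNAs of Zp2, which were not analysed here, so these values describe 1 variant and not the gene. When the listed transcripts were scaled to equal medians, the log2 age ratio of this variant became −0.010, and with equal upper quartiles 0.15. The near equality of young and aged-sec holds for TPM as deposited: the log2 aged-sec over young ratio was −0.57 and −0.52 under these scalings.

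Atp2b1 was represented by 2 predicted variants, both highest in the aged library. XM_011243549 was measured at 1.23 TPM in the young, 21.83 TPM in the aged and 0.30 TPM in the aged-sec library. XM_030245244 was at 1.07, 3.28 and 1.11 TPM in the same order. The first variant was near 1 TPM in young and below it in aged-sec oocytes, and only in the aged library did it pass 10 TPM. Its aged over young ratio was 17.7 (log2 3.69), and its aged value was 72.8 times the aged-sec value (log2 aged-sec over aged −4.80). It met the size rule in both comparisons, which share the aged library, so the 1 aged value enters both ratios. Its age ratio ranked 15 from the highest of 2186, and its aged-sec over aged ratio ranked 2 from the lowest of 2239. Aged-sec oocytes also had less of it than young ones, 0.30 against 1.23 TPM, a 4.10-fold difference between values that are both far under 10 TPM.

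For XM_030245244 the age ratio was 3.07 (log2 1.27) and the aged-sec over aged ratio was 0.338 (log2 −1.23). It did not reach 10 TPM in any library and so lay outside the size rule. In contrast to the first variant, its young and aged-sec values were within 0.04 TPM of each other as deposited. With equal medians and equal upper quartiles its log2 age ratio was 0.53 and 0.66, and its log2 aged-sec over young ratio was −0.39 and −0.34. The sum of both variants was 2.30 TPM for young, 25.11 TPM for aged and 1.41 TPM for aged-sec. XM_030245244 held 46.5% of that sum for young, 13.1% for aged and 78.7% for aged-sec, so the variant that leads differed between libraries. RefSeq lists 8 mRNAs of Atp2b1, of which the other 6 were not analysed here. Reads that fit several variants can be assigned to any of them, so the level of a single variant is less certain than that of a gene.

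**Figure D1:**
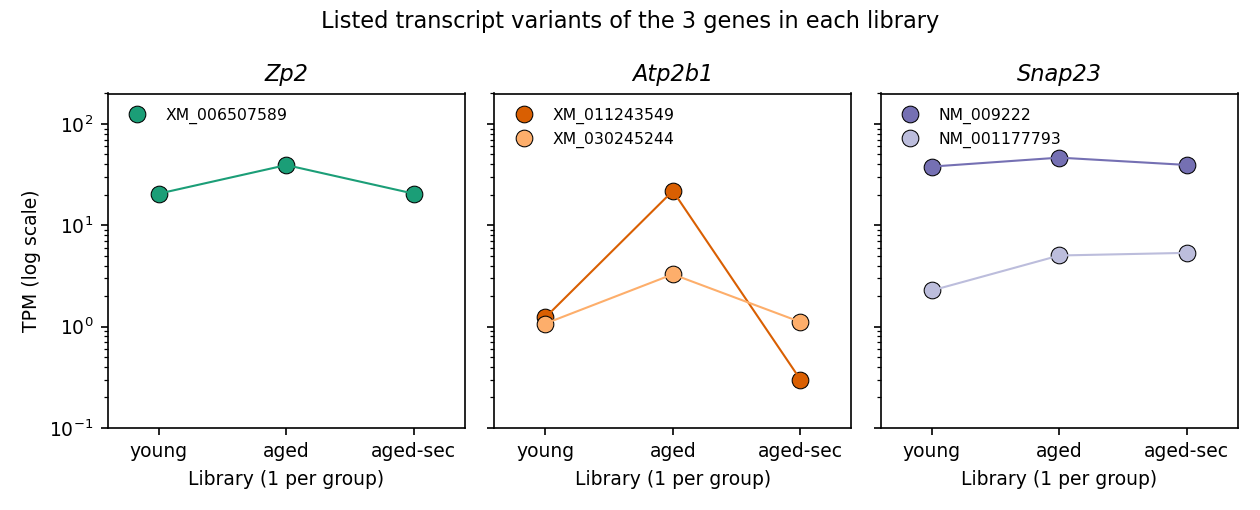
TPM on a log axis for each listed variant of Zp2, Atp2b1 and Snap23 in the young, aged and aged-sec libraries, with 1 point per library and lines joining the points of a variant. XM_011243549 of Atp2b1 goes from 1.23 to 21.83 and then 0.30 TPM, Zp2 has nearly equal young and aged-sec values, and NM_009222 of Snap23 stays between 37.97 and 46.54 TPM.

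Snap23 was represented by 2 curated variants. NM_009222 was at 37.97 TPM in the young, 46.54 TPM in the aged and 39.40 TPM in the aged-sec library. NM_001177793 was at 2.27, 5.03 and 5.34 TPM. The first had its high value in the aged library, whereas the second was about equally high in both libraries of aged oocytes. For NM_009222 the age ratio was 1.23 (log2 0.29), just above the lowest ratio of the table, and 6.40% of 2186 transcripts had a lower one. Its aged-sec over aged ratio was 0.847 (log2 −0.24), and 42.7% of 2239 transcripts had a lower one. Both directions of NM_009222 turned when the listed transcripts were scaled to equal medians (log2 −0.65 and 0.12) or equal upper quartiles (−0.49 and 0.01), so no direction is given for it. All listed transcripts were selected as higher in aged oocytes, and such scaling turns many of their age ratios. Over all listed genes with at least 10 TPM the median log2 age ratio became −0.43 and −0.26. For NM_001177793 the age ratio was 2.22 (log2 1.00) and the aged-sec over aged ratio was 1.06 (log2 0.08), at values under 10 TPM in every library. Its log2 age ratio was 0.18 and 0.32 under these scalings, and its log2 aged-sec over aged ratio was 0.40 and 0.30.

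Both Snap23 variants carry the same coding sequence of 630 bases without the stop codon, including the cysteine codons shown above, so they encode 1 protein. They differ only in the first, untranslated exon, which has 136 bases in NM_009222 and 71 bases in NM_001177793. The shorter exon lies inside the longer one, so NM_001177793 has 0 bases of its own, lacks 65 bases of NM_009222, and is told apart only by the splice junction behind its first exon and by where it starts. NM_001177793 made up 5.64% of the sum of both variants for young, 9.75% for aged and 11.9% for aged-sec. The sums were 40.24, 51.57 and 44.74 TPM. Another curated variant, NM_001177792, was not analysed here. It has an additional exon of 33 coding bases that follows the exon with the cysteine codons. RefSeq lists 7 mRNAs of Snap23 in all.

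**Figure D2:**
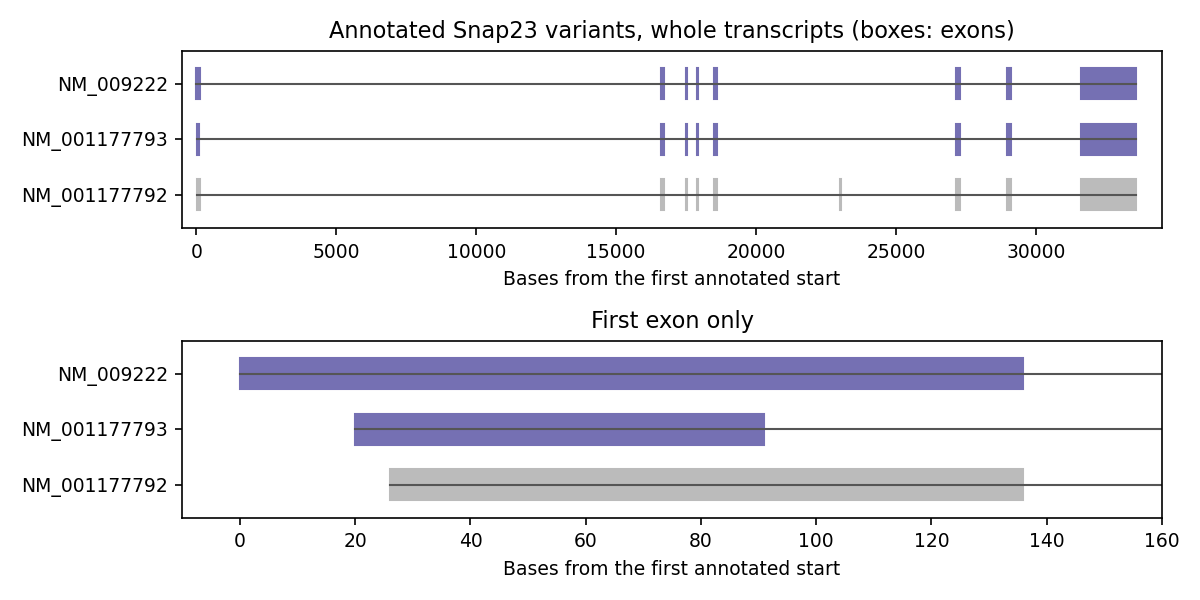
Exons of 3 annotated Snap23 variants, as boxes on a line, by distance in bases from the first annotated start (GENCODE M21, GRCm38), for the whole transcripts and for the first exon alone. The measured variants (purple) share every exon but the first, which is 136 bases long in NM_009222 and 71 in NM_001177793, and NM_001177792 (grey, not analysed here) has the additional exon of 33 bases.

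Across the 3 genes, 3 variants reached 10 TPM in a library. Of these 1, the Atp2b1 variant XM_011243549, met the size rule as higher in aged than in young oocytes, where 18.2% of all 2186 transcripts did (398). It passed the minimum of 10 TPM only through the aged library, which favours a high age ratio and a low aged-sec over aged ratio. With the listed transcripts at equal medians 48 of 2087 transcripts met the rule for age, and at equal upper quartiles 59 of 2054. The same 1 of 3 met it as lower with secretome (aged-sec over aged), against 2.95% of 2239 transcripts, while 0 of 3 met it as higher, against 0.223%. For aged-sec over aged, equal medians moved the split over all transcripts from 5 higher and 66 lower to 23 higher and 23 lower. With equal upper quartiles it was 11 higher and 31 lower. The Atp2b1 variant stayed past the rule under both scalings in both comparisons. Of all 5 variants 4 were below aged in the aged-sec library, where 70.6% of the 9126 transcripts were. The selection at an age ratio of 1.2 or more favours high aged values, and so aged-sec below aged. Below young were 2 of the 5, against 21.8%. These were Zp2, by 0.01 TPM, and XM_011243549 of Atp2b1, at values far under 10 TPM in both libraries. With 5 variants these shares are descriptions of the members and set none of them apart.

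**Figure D3:**
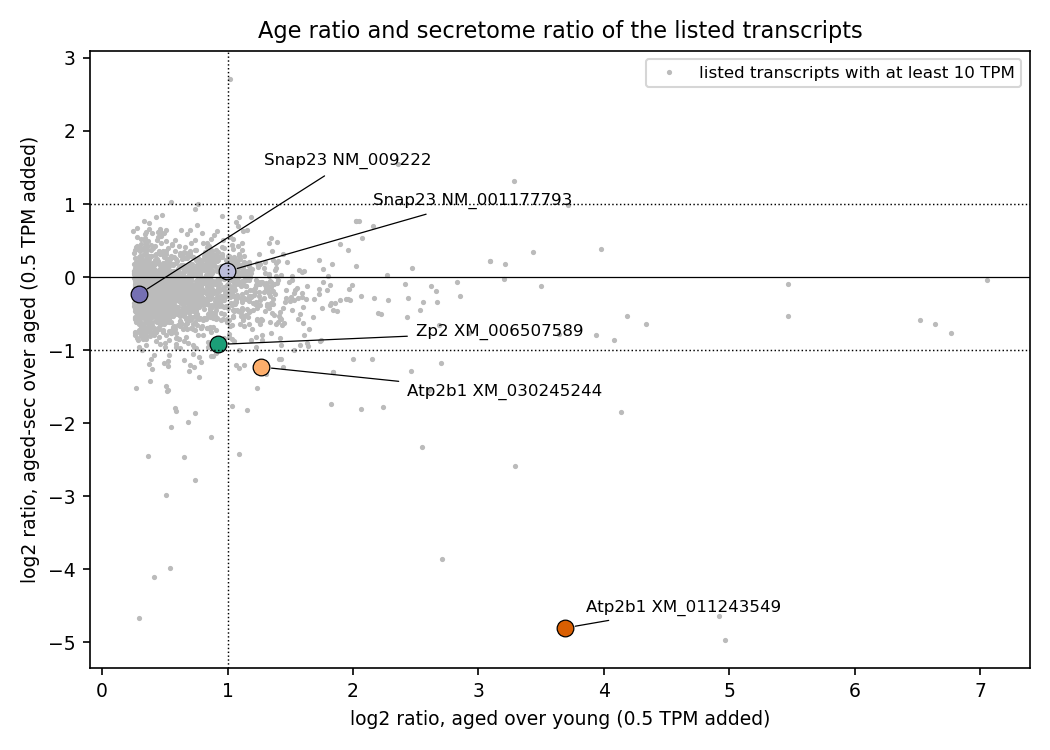
The log2 aged over young ratio (x axis) against the log2 aged-sec over aged ratio (y axis), both with 0.5 TPM added, for listed transcripts with at least 10 TPM in a library (grey) and the 5 variants (coloured). Dotted lines mark the 2-fold limits. XM_011243549 of Atp2b1, at 3.69 and −4.80, lies apart from the grey cloud, and NM_009222 of Snap23, at 0.29 and −0.24, lies within it. The aged value enters both axes.

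The transcripts most like each gene's leading variant were those with the smallest distance in the plane of these 2 log2 ratios, over 3 libraries and 2156 candidate transcripts. Zwint (NM_001293684), a kinetochore protein gene, was nearest to Zp2 at a distance of 0.030, with 5.56 TPM in the young, 10.99 in the aged and 5.69 in the aged-sec library. Next came Erg28 (NM_001360451, distance 0.045), of sterol synthesis, and a variant of the dynein chain gene Dync1i2 (XM_017315326, 0.048). Snap23 had still closer neighbours in Fbxo9 (NM_001081490, 0.0063), an F-box gene, Cmc4 (NM_001294277, 0.0069) and the deubiquitinase gene Usp28 (NM_175482, 0.0079). Atp2b1 had no near neighbour. The nearest was Timeless (NM_001164081) at 1.24, with 0.02, 15.20 and 0.13 TPM, followed by Atad2 (NM_027435) at 1.28 and Hddc3 (XM_006541154) at 1.36. Their aged values of 15.2, 15.4 and 65.2 TPM were the high ones of the 3 libraries, which follows from how neighbours were chosen.

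Of 29 genes chosen for the zona, the egg surface and the transcription factors of such oocyte genes, 6 were listed, with 1 transcript each, and 4 had at least 10 TPM. In the age comparison 1 of the 4, Tbpl2, which is a transcription factor gene and neither a zona nor a surface gene, met the size rule as higher, against 15.9% of 1759 genes counted with 1 transcript each, and 0 could be lower. Under both scalings named above 0 of the 4 met it. The median log2 age ratio of the 4 was 0.84, against 0.53 over those genes. Tbpl2, which encodes the TATA-binding protein of oocytes, was measured at 12.4, 28.1 and 27.4 TPM (here and below in the order young, aged, aged-sec). Its aged-sec value stayed next to the aged one, where that of Zp2 was within 0.01 TPM of the young one as deposited. Itga6, an integrin chain of the egg surface, stood at 26.0, 44.6 and 38.4 TPM. Serpine2, a secreted protease inhibitor, was the most abundant at 421, 517 and 409 TPM. Taf4b, a TFIID subunit of germ cells, stood at 1.02, 2.28 and 4.95 TPM, and Pcsk5, a proprotein convertase, at 0.07, 0.22 and 0.24 TPM. Between aged-sec and aged oocytes 0 of the 4 met the rule as lower, against 2.18% of 1789 genes, and 0 as higher, against 0.168%. Their median was −0.28, against −0.18.

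Of 49 calcium handling genes 17 were listed, with 25 transcripts, and 4 had at least 10 TPM. All 4 reached 10 TPM in the age pair only through the aged library, so the minimum favours high age ratios among them. Of the 4, Atp2b1, Atp2c1 and Trpm7 met the size rule as higher in aged oocytes, against 15.9% of 1759 genes. Under either scaling Atp2b1 alone did. Atp2c1 and Trpm7 then fell under 10 TPM in both libraries of the pair and lay outside the rule, whatever their scaled ratios. The median log2 age ratio of the 4 was 1.64, against 0.53. With a minimum of 1 TPM 5 of 11 genes (45.5%) were 2-fold higher, against 18.2% of 4235, and the median was 0.80, against 0.56. Atp2c1 (NM_001359823), the calcium pump of the Golgi, stood at 1.92, 10.3 and 17.1 TPM. So the leading variants of these pump genes were both high in aged oocytes but ordered oppositely in aged-sec oocytes. A further Atp2c1 variant (NM_175025) stood at 2.34, 3.72 and 1.57 TPM, lowest in aged-sec like XM_011243549 of Atp2b1. Trpm7, a channel that lets divalent ions into the cell, stood at 5.02, 11.5 and 8.23 TPM. Between aged-sec and aged oocytes Atp2b1 was the only 1 of the 4 past the rule, as lower, against 2.18% of 1789 genes, and the median was −0.54, against −0.18. Here 3 of the 4 reached 10 TPM only through the aged library, which favours low aged-sec over aged ratios. Of the 25 transcripts 21 (84%) were below aged, against the 70.6% given above. With curated transcripts only, the predicted variants of Atp2b1, Trpm7 and Fbxo43 are left out and Atp2c1 alone was counted. It was higher in aged oocytes, where 188 of all listed genes were. It was not lower in aged-sec oocytes, where 31 of all listed genes were.

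Other plasma membrane pump genes of the Atp2b family were listed with 1 predicted variant each, near the floor of the table. Variants with an age ratio under 1.2 are not listed, so these values do not give the levels of the genes. Atp2b2 stood at 0.02, 0.06 and 0.04 TPM, Atp2b3 at 0.04, 0.19 and 0.12 TPM and Atp2b4 at 0.18, 0.65 and 0.22 TPM. In the aged library all these variants were below either Atp2b1 variant. In aged-sec XM_011243549 of Atp2b1, at 0.30 TPM, was itself close to Atp2b4. Fbxo43, the inhibitor of the anaphase-promoting complex that is destroyed when egg calcium rises, stood at 9.97, 14.2 and 8.98 TPM. Atp2a2, the pump that refills the endoplasmic reticulum, stood at 4.82, 7.73 and 6.17 TPM. Itpr1, the receptor through which that store releases calcium, stood at 4.0, 5.49 and 5.37 TPM, and Micu2, a regulator of mitochondrial calcium uptake, at 5.99, 8.74 and 8.88 TPM. Fbxo43 did not meet the size rule in either comparison, and the other 3 were under 10 TPM in every library and so outside it.

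Of 61 genes for cortical granules and membrane fusion 33 were listed, with 52 transcripts, and 10 had at least 10 TPM. With 1 transcript per gene 0 of the 10 met the size rule for age, against 15.9% of 1759 genes, and the median log2 age ratio was 0.38, against 0.53. For aged-sec over aged 0 of the 10 were lower by the rule, against 2.18% of 1789 genes, and 0 were higher, against 0.168%. The median there was −0.26, against −0.18. In either pair 3 of the 10 reached 10 TPM only through the aged library. Snap23, at 46.54 TPM in aged oocytes, ranked behind Rab3gap1 and Sytl4 there. Rab3gap1 (NM_178690), which switches off RAB3 proteins, stood at 67.9, 83.1 and 56.6 TPM. Its predicted variant XM_006529405, not the one counted, met the rule for age at 9.81, 20.9 and 16.4 TPM. Sytl4 (NM_001290718), the granule protein granuphilin, stood at 44.6, 65.8 and 55.4 TPM. Stx7, an endosomal syntaxin, stood at 19.3, 28.3 and 23.8 TPM, and Rab3d, a small GTPase of secretory granules, at 15.4, 19.5 and 19.1 TPM. Snap29, a relative of Snap23, stood at 11.2, 14.0 and 11.2 TPM, and Exoc1, a subunit of the exocyst that tethers vesicles, at 10.2, 14.0 and 9.50 TPM. Stxbp2, another of the 10, was highest in aged-sec instead, at 6.47, 10.4 and 13.4 TPM. Of the 52 transcripts 41 (78.8%) were below aged in the aged-sec library, against 70.6% of all listed transcripts.

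**Figure D4:**
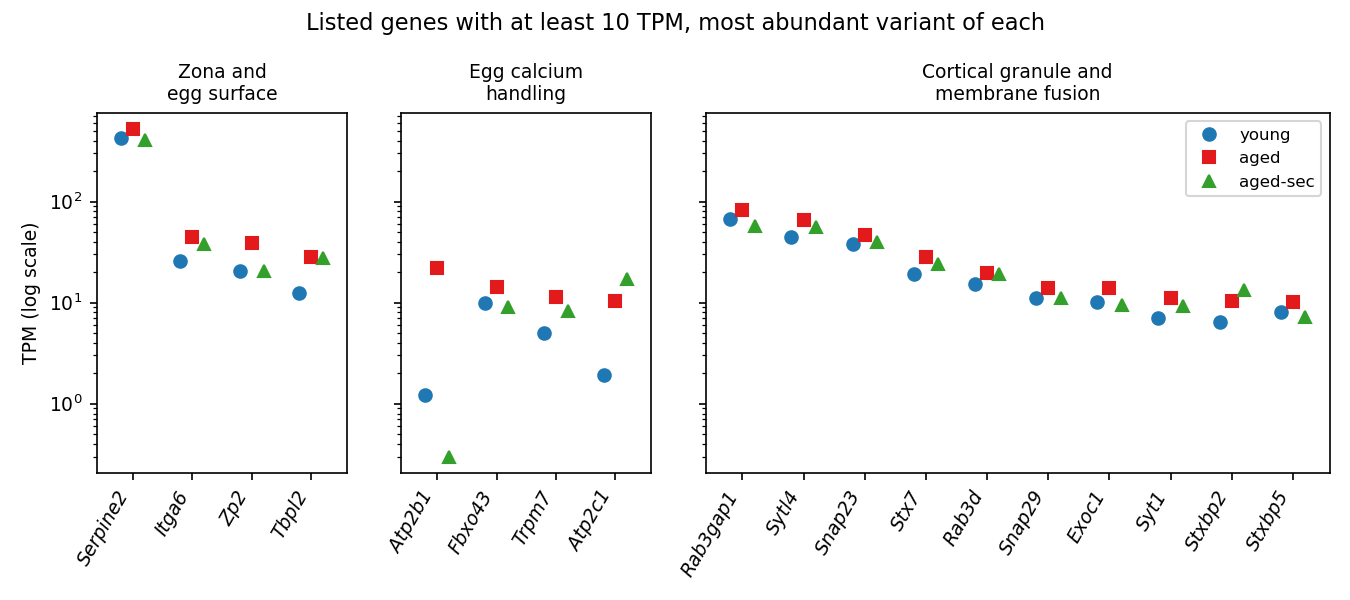
TPM on a log axis in the young (circles), aged (squares) and aged-sec (triangles) libraries for the genes of the 3 lists with at least 10 TPM in a library, each by its most abundant variant. Atp2b1 has the widest spread of the genes plotted, from 0.30 to 21.83 TPM. Of the genes plotted with Snap23, Stxbp2 spreads the most, from 6.47 TPM in young to 13.39 TPM in aged-sec.

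Markers of oocytes and of other cells were looked up among the listed transcripts. Of 14 oocyte markers 4 were listed (Bmp15, Gdf9, Kit and Zp2 itself), with a summed level of 629, 886 and 851 TPM. Most of it was Bmp15, at 585, 817 and 799 TPM, while Gdf9 stood at 4.36, 6.81 and 4.46 TPM. Of 16 markers of cumulus and granulosa cells, which surround the egg, 4 were listed (Fshr, Kitl, Nr5a2 and Vcan), at a summed 3.30, 5.50 and 4.04 TPM. Both sums were highest in the aged library, as were Zp2 and Atp2b1, and aged above young was set by how the table was made. The oocyte sum includes Zp2. Kit, at 19.01, 23.16 and 26.85 TPM, and Vcan, at 0.04, 0.10 and 0.12 TPM, were highest in aged-sec, and the other listed markers in aged. The part of cumulus and granulosa cells in the values of Zp2 and Atp2b1 was not tested. None of 8 blood and immune markers was among the transcripts analysed. Transcripts with an age ratio under 1.2 are not listed, so an unlisted marker need not be absent from the libraries. No TPM value of any listed transcript was 0, so the look-up cannot show that other cells were absent.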

How the data were processed

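RNA of 3 pooled oocyte libraries was measured. Per the labels' protocols, cDNA was made by SMART-Seq2 and libraries with a transposon; the design text names DNBSEQ. The deposited table gives a TPM value per RefSeq transcript and library, per the file headers. The authors' ratio columns (aged over young, aged-sec over aged) equal the TPM quotients within a relative 6.64e-07. Aligner, quantification and genome build: not given in the sources used here. The young column sums to 229243 TPM, the aged one to 324814 and the aged-sec one to 321460, of a whole of 1000000. Depth is unknown, so no counting interval could be given, and 1 library per group limits the precision.

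TPM were used as deposited. The size rule took absolute log2 ratios of 1 or more after adding 0.5 TPM, where a library of the pair reached 10 TPM. Its code was tested on simulated data. Lists used the variant with the highest mean TPM of each gene. Named were every variant of the 3 genes, list genes with a transcript under the size rule, the 6 most abundant other genes of each list, and the 3 transcripts nearest to each gene's leading variant, without Gm-numbered, Rik or -ps symbols. The Atp2b relatives and Stxbp2 were named after their values were seen. The genes and lists were chosen with earlier results of these data known. Alternatives were other pseudocounts (0.1 and 1 TPM), a minimum of 1 TPM, 2 scalings, summed variants and curated transcripts only. Of the 5 accessions 4 matched RefSeq of assembly GRCm38.p6, used for numbers of mRNAs. Sequences came from GENCODE M21. Python 3.11.15, pandas 2.3.3, numpy 2.4.6, matplotlib 3.10.9 and Biopython 1.88 were used.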

Additional observations from a re-analysis of the deposited data

How the results depend on the processing

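Under the alternatives, 60 of 69 values for the 5 variants kept their direction and their side of the size rule, among them all those of the Atp2b1 variant XM_011243549. The exceptions came from scaling the listed transcripts, which moved the median log2 ratio by −0.72 for age and by 0.29 for aged-sec over aged with equal medians, and by −0.59 and 0.20 with equal upper quartiles. These transcripts were selected to be higher in aged oocytes, so such scaling takes out a part of that selection. With equal medians and equal upper quartiles respectively, Snap23 NM_009222 became −0.65 and −0.49 for age, 0.12 and 0.0099 for aged-sec over aged, and −0.53 and −0.48 for aged-sec over young. Atp2b1 XM_030245244 became −0.39 and −0.34 for aged-sec over young, and Zp2 became −0.010 for age with equal medians.

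For the zona and egg surface list both scalings left 0 genes higher in aged oocytes, with medians of −0.089 and 0.071, and equal medians gave 0.085 for aged-sec over aged. For calcium handling 1 gene was higher in aged oocytes under either scaling and with curated transcripts only. Fewer calcium genes reached 10 TPM in these settings than as deposited. Over all listed genes 31 were higher in aged oocytes with equal medians, 37 with equal upper quartiles and 188 with curated transcripts. With a minimum of 1 TPM 5 of 11 calcium genes were higher, against 18.2% of 4235, and the median was 0.80. In aged-sec over aged oocytes 1 calcium gene was higher with equal medians, where 12 of all listed genes were. There 3 of 11 calcium genes (27.3%) were lower with a minimum of 1 TPM, against 6.81% of 4320 genes. With curated transcripts 0 were lower, where 31 of all listed genes were, and the median over the remaining calcium gene was 0.70. For membrane fusion 3 of 23 genes (13%) were higher in aged oocytes with a minimum of 1 TPM, against 18.2% of 4235. Scaling gave medians of −0.59 and −0.44 for age and 0.11 and 0.0017 for aged-sec over aged. Over all listed genes the median became −0.43 and −0.26 for age and 0.20 and 0.083 for aged-sec over aged. The minimum of 1 TPM and the curated set change by construction which genes are counted. No paired analysis was possible because each group had 1 library, and none could be left out. Depth is unknown, and 1 library per group limits every value.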
